A study of Mus musculus with 2 samples.

Results

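Major histocompatibility complex (MHC) class II molecules display peptides from engulfed proteins to CD4 T cells, and the 10 genes described here build, load and switch on that system. They were chosen by name, as the rows of the deposited gene table with the symbols H2-Aa, H2-Ab1, H2-Eb1, Cd74, Ciita, H2-DMa, H2-DMb1, H2-DMb2, H2-Oa and H2-Ob, and all 10 were found among 31053 genes. Their values were followed in single-cell RNA libraries of tumours made with B16 cells, a mouse melanoma line. The tumours came from mice in which both Mettl3 alleles were flanked by recombination sites (Mettl3 fl/fl) in either genotype. WT mice carried no Cre (Lyz2 +/+), and KO mice carried Cre in 1 Lyz2 allele (Lyz2 cre/+), which is active in macrophages, monocytes, granulocytes and a few dendritic cells. The labels give an age of 8 weeks for both. Live cells with CD45, the common surface protein of blood cells, were sorted, and 1 library was made per genotype, so no value has a biological replicate. The paper states that samples of several mice were pooled in each group.

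Class II heterodimers form from an alpha and a beta chain, H2-Aa with H2-Ab1 for I-A and H2-Eb1 as the beta chain of I-E. C57BL/6 mice lack a working I-E alpha gene, so that H2-Eb1 is transcribed there without a surface I-E. Cd74, the invariant chain, fills the groove until proteases remove it, H2-DM exchanges its last fragment for peptide, and H2-DO restrains H2-DM. Ciita is the main coactivator of class II genes, has separate promoters in dendritic cells, in B cells and after interferon-gamma, and is itself shut down when dendritic cells mature.

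The 8 H2 genes lie within 224 kb of chromosome 17 (mm10, GRCm38), between positions 34092340 and 34316674, and Ciita lies on chromosome 16 between 10480059 and 10528418 on the plus strand. Class II genes share a promoter layout to which the factors that recruit Ciita bind, so 4 stretches of promoter are shown to let the layout be seen. They come from RefSeq on GRCm38.p6, 5′ to 3′ on the strand of the gene, and they lie upstream of the RefSeq start and outside annotated exons. The GENCODE gene model of H2-DMb2 starts further upstream, at 34143307, so that its stretch is intronic there. Capitals mark a Y box, TGATTGG, and, where it stands 15 to 35 bases before the Y box, an X-type motif, AACNNATG.
H2-Eb1, chr17:34305746-34305837, plus strand: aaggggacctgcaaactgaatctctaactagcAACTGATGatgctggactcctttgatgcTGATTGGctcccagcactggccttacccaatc
H2-Ob, chr17:34238786-34238877, plus strand: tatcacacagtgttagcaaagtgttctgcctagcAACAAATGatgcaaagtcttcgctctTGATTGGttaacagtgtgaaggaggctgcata
H2-DMb2, chr17:34145097-34145188, plus strand: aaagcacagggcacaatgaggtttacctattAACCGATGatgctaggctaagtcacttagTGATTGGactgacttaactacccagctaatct
H2-Aa, chr17:34287842-34287933, minus strand: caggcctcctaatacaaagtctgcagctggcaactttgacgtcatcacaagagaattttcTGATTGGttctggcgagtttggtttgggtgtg

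Of the 7 members on chromosome 17 with a promoter in the table, 6 held the Y box in the 250 bases before the start, and 4 (H2-Eb1, H2-Ob, H2-DMb1 and H2-DMb2) held the X-type motif and the Y box at that spacing. The X-type motif began 26 bases before the Y box in H2-Ob, 28 in H2-Eb1 and 29 in both DM beta genes. Among all 32851 promoters searched on both strands, 7.23% held the Y box, 7.71% the X-type motif and 0.0426% the pair, which is 14 promoters. Both motifs were chosen after these promoters had been read, so the shares describe them. A missing match, as in H2-DMa, says only that these letters are not in that window.

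The libraries labelled WT and KO held 5895 and 8446 barcodes with 45963969 and 54052317 unique molecular identifiers (UMIs, each counting 1 captured transcript). After filters and removal of likely doublets 5405 and 7625 cells were kept, with medians of 4148 and 3567 UMIs. Cells were sorted into classes by marker genes that include no member, and cells with weak scores (10.2% and 11.6% of those kept) or mixed scores (9.05% and 6.64%) were left ungated. Mettl3, the targeted gene, did not separate the libraries. It stood at 10.2 CPM (UMIs per 1000000 UMIs of the class) in macrophage-like cells labelled WT and at 10.6 CPM in those labelled KO, a log2 ratio of 0.059 (interval -0.26 to 0.38), although 3′ reads need not cover the deleted part. Lyz2, a copy of which the Cre allele replaces, stood at 6010 and 2727 CPM in the same cells. The libraries are therefore named by their labels throughout. All intervals are 95% and cover counting error only, and a ratio compares 2 libraries, not 2 genotypes. In pooled sums, fewer positive cells and less RNA per cell cannot be told apart, which the values per cell below address in part.

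All 10 members together made up 11826 CPM of the kept cells labelled WT and 11790 CPM of those labelled KO, nearly the same total. The 4 most abundant members, H2-Aa, H2-Ab1, H2-Eb1 and Cd74, are called the core genes below. Their sum put the classes in an order that both libraries shared at the top. The cDC2-like cells, conventional dendritic cells (DCs) with Cd209a and Mgl2, stood at 37052 CPM labelled WT and 33828 CPM labelled KO. The cDC1-like cells, with Xcr1 and Clec9a, stood at 35432 and 33388 CPM, close below.

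B-like cells followed at 17716 and 18253 CPM. Mature DC-like cells, which carry Ccr7 and Fscn1, stood at 16691 CPM labelled WT but at 12417 CPM labelled KO. Macrophage-like cells stood at 11693 and 13718 CPM, and monocyte-like cells at 11567 and 10304 CPM. Mature DC-like cells thus stood above macrophage-like cells labelled WT and below them labelled KO, with monocyte-like cells under both in either library, whereas both conventional DC classes were above B-like cells in either library. Labelled WT, however, the intervals of macrophage-like (11640 to 11747) and monocyte-like cells (11465 to 11669) overlapped. The pDC-like (plasmacytoid DC) cells stood at 6248 and 7007 CPM.

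The remaining 4 classes read lower, and in some of them few cells carried the sum. T-like cells, of a lineage that in mice makes little or no class II, read 2721 and 1754 CPM, NK-like cells 2075 and 697 CPM, granulocyte-like cells 2404 and 2313 CPM, and melanoma-like cells 212 and 275 CPM. A single cell held 81.6% of the core UMIs of the NK-like cells labelled WT (338 of 414) and 40.1% of those labelled KO. Without the top cell of each library the NK-like level was 399 and 432 CPM. In granulocyte-like cells 1 cell held 13.3% labelled WT and 46.5% labelled KO, and the level without it was 2104 and 1281 CPM.

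The level of the monocyte-like class depends on how cells are named. When whole clusters were named by the same markers it read 16303 and 13855 CPM, above the macrophage-like class at 11132 and 12799 CPM. The cluster led by Cxcl9 and Serpina3g then brought in 368 cells with weak scores and 206 cells that the gate had named macrophage-like. The ungated cells with weak scores read 18760 and 19359 CPM, above 9 of the 11 classes, those but the cDC2-like and cDC1-like, and stand in no class of this order.

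**Figure D1:**
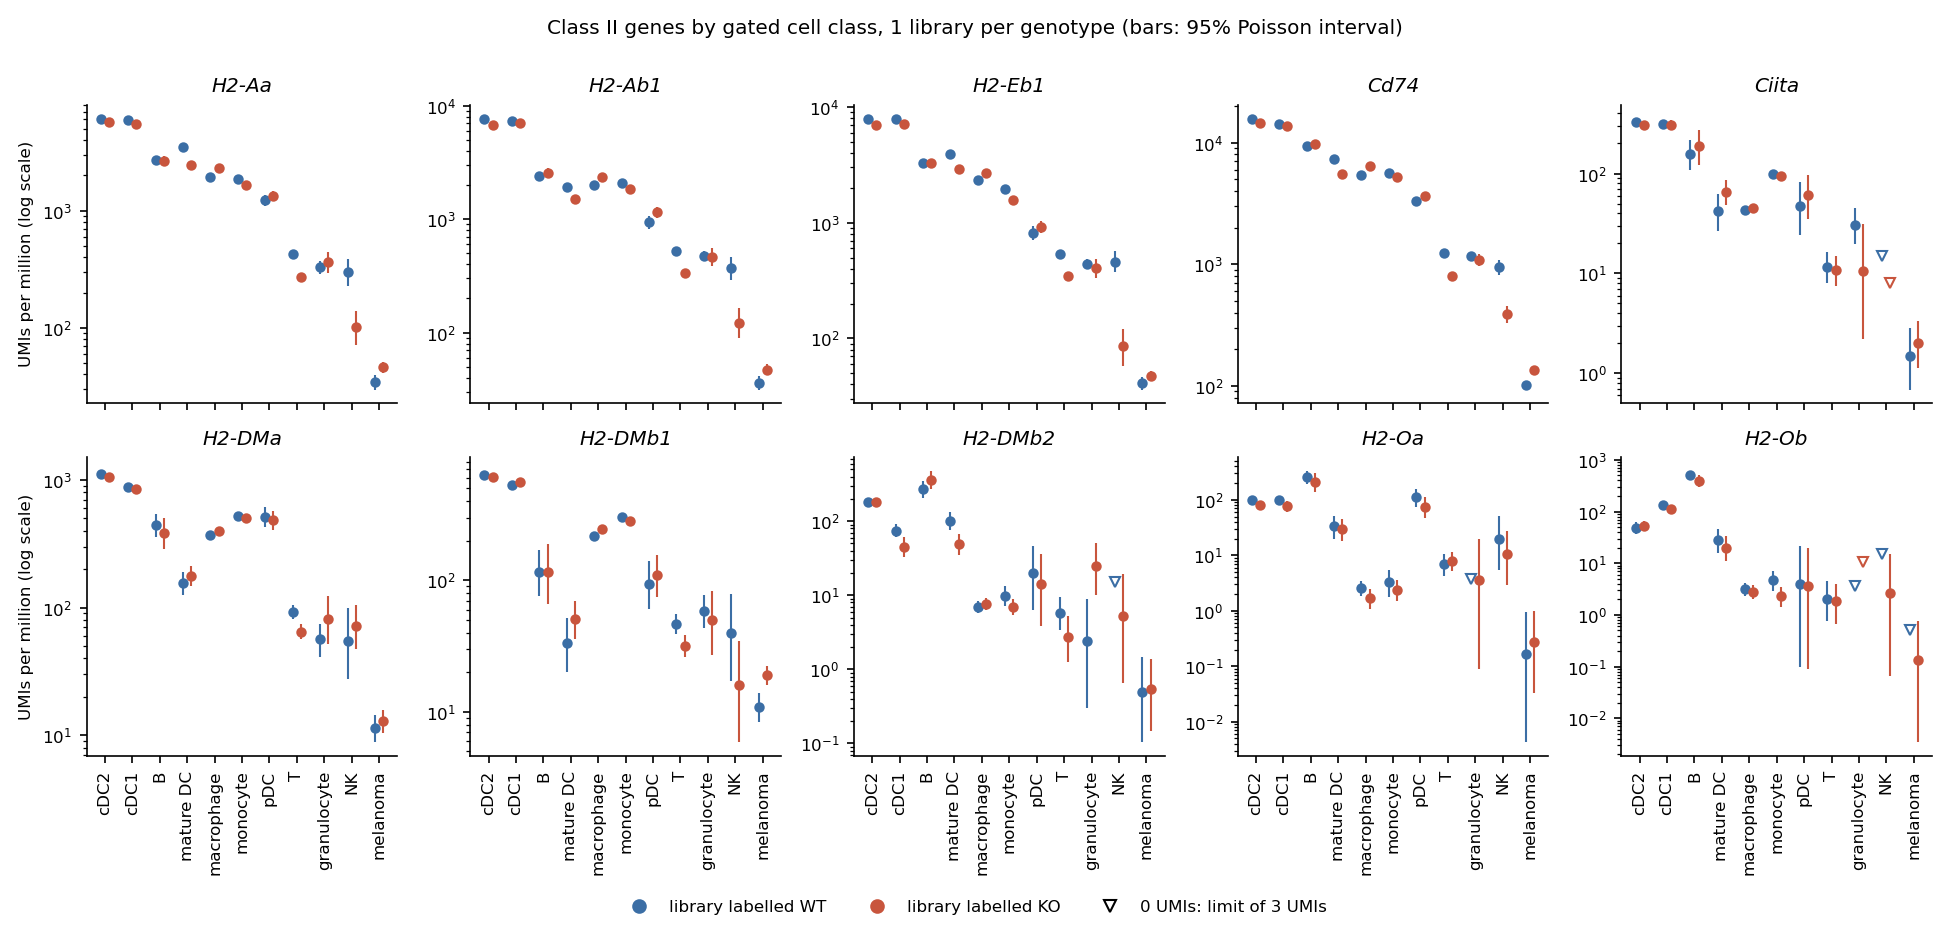
Each panel plots 1 gene, with CPM on a log axis for 11 gated classes, a blue point for the library labelled WT and a red point for the library labelled KO, bars for the 95% Poisson interval and open triangles for the limit set by 0 UMIs. The core genes fall from 5725 to 15651 CPM each in cDC2-like cells to 34.2 to 134 CPM in melanoma-like cells, while H2-DMb2, H2-Oa and H2-Ob peak in B-like cells.

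The core genes moved as a block across classes. Over the 22 class sums (11 classes in 2 libraries), the pairwise Pearson r of their log2(CPM + 1) was 0.987 to 0.996, a description in which both points of a class share their markers and free RNA. Cd74 as a share of the core UMIs was 40.4% and 41.2% in cDC1-like cells. Macrophage-like cells gave 46.3% and 46.4%, B-like cells gave 52.9% and 53.5%, and the share was 45.4% and 55.7% in NK-like cells with 414 and 262 core UMIs. The balance of the I-A chains differed between classes. H2-Ab1 stood below H2-Aa in mature DC-like cells (1897 and 1498 CPM against 3522 and 2457 CPM), in pDC-like cells (933 and 1142 CPM against 1228 and 1331 CPM) and in B-like cells (2380 and 2561 CPM against 2689 and 2662 CPM). In the other 8 classes H2-Ab1 stood above H2-Aa in both libraries, as in cDC2-like cells at 7581 and 6681 CPM against 6009 and 5725 CPM. The counting intervals of these genes lay apart in both libraries only in mature DC-like, cDC2-like, cDC1-like, monocyte-like and T-like cells. In the other classes they overlapped labelled KO, and in B-like, NK-like and melanoma-like cells also labelled WT. Counts of 3′ ends are not scaled by transcript length, so what differed is the ratio of these genes between classes, not a level between genes.

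Ciita did not follow the core genes in every class. It stood at 324 and 306 CPM in cDC2-like cells, 311 and 305 CPM in cDC1-like cells, 157 and 188 CPM in B-like cells, and 98.4 and 95.5 CPM in monocyte-like cells. In these 4 classes Ciita made up between 0.843% and 1.02% of the UMIs of Ciita and the core genes. Macrophage-like cells, with a core level like that of the monocyte-like cells, held 43.3 and 45.1 CPM of Ciita, from 686 and 703 UMIs. Their Ciita share was 0.369% (interval 0.342% to 0.397%) labelled WT and 0.328% (0.304% to 0.353%) labelled KO and lay below that of the monocyte-like cells at 0.843% (0.765% to 0.927%) and 0.918% (0.859% to 0.981%). Among the DC, B-like, macrophage-like and monocyte-like classes, mature DC-like cells had the lowest share labelled WT, 0.251% from 24 UMIs (0.161% to 0.373%), and 0.524% from 49 UMIs labelled KO (0.388% to 0.692%). Lower Ciita per core transcript in macrophage-like than in monocyte-like cells was thus seen in both libraries with intervals apart, whereas the place of mature DC-like cells relative to macrophage-like cells was not shared between the libraries.

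The DM genes split by beta chain. H2-DMa, the alpha chain, read 1111 and 1055 CPM in cDC2-like cells, 521 and 504 CPM in monocyte-like cells, 512 and 480 CPM in pDC-like cells and 372 and 394 CPM in macrophage-like cells. H2-DMb1 was the main beta gene there, at 632 and 608 CPM in cDC2-like, 303 and 285 CPM in monocyte-like and 218 and 245 CPM in macrophage-like cells. H2-DMb2 made up 3.11% and 2.99% of the DM beta UMIs in macrophage-like cells, 3.13% and 2.37% in monocyte-like cells, 12.2% and 7.54% in cDC1-like cells and 22.0% and 22.9% in cDC2-like cells. In B-like cells the order turned, with 69.8% (58.9% to 79.2%) labelled WT and 75.8% (63.6% to 85.5%) labelled KO. Mature DC-like cells gave 75.3% (64.2% to 84.4%) labelled WT, from 58 H2-DMb2 and 19 H2-DMb1 UMIs, and 49.3% (37.6% to 61.1%) labelled KO, from 37 and 38 UMIs. They also had the least DM per core transcript of the 11 classes, 1.71% and 2.19% of the DM and core UMIs, against 4.93% and 5.17% in cDC2-like cells.

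The DM beta genes are neighbours and near copies, and their longest annotated transcripts share a run of 221 bases that ends 466 and 629 bases before their 3′ ends. Reads within it cannot be told apart, so that levels of both genes may be understated, and the last 500 bases were 89.2% identical where aligned. A same-strand annotated transcript, CR974462.3, overlaps H2-DMa, and reads shared with it may be lost.

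The DO genes were the most restricted members. H2-Ob, the beta chain, read 506 and 397 CPM in B-like cells, 132 and 113 CPM in cDC1-like cells, 48.8 and 53.1 CPM in cDC2-like cells, and rested on 16 and 15 UMIs in mature DC-like cells. H2-Oa, the alpha chain, read 255 and 209 CPM in B-like cells, 98.5 and 77.2 CPM in cDC1-like cells and 99.3 and 80.7 CPM in cDC2-like cells. In macrophage-like cells H2-Oa read 2.59 (1.86 to 3.51) and 1.67 (1.09 to 2.44) CPM, below the 6.88 (4.20 to 10.6) and 7.96 (5.20 to 11.7) CPM of T-like cells. H2-Ob read 3.15 and 2.76 CPM there and 2.06 and 1.84 CPM in T-like cells, with overlapping intervals.

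As a share of the DO and DM UMIs, the DO genes reached 48.0% and 41.4% in B-like cells, 13.4% and 11.7% in cDC1-like cells and 7.16% and 6.76% in cDC2-like cells, but 0.953% and 0.679% in macrophage-like cells. The pDC-like cells held the alpha chain nearly alone. H2-Oa read 110 and 74.7 CPM there, from 28 and 21 UMIs, beside 1 UMI of H2-Ob in either library. H2-Oa was 96.6% (82.2% to 99.9%) and 95.5% (77.2% to 99.9%) of the DO UMIs in pDC-like cells, against 33.5% (26.5% to 41.2%) and 34.5% (24.5% to 45.7%) in B-like cells. The cDC1-like cells, at 42.8% and 40.6%, and the cDC2-like cells, at 67.0% and 60.3%, stood between them. The intervals of the pDC-like, cDC2-like and cDC1-like classes did not overlap in either library, while those of cDC1-like and B-like cells did.

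**Figure D2:**
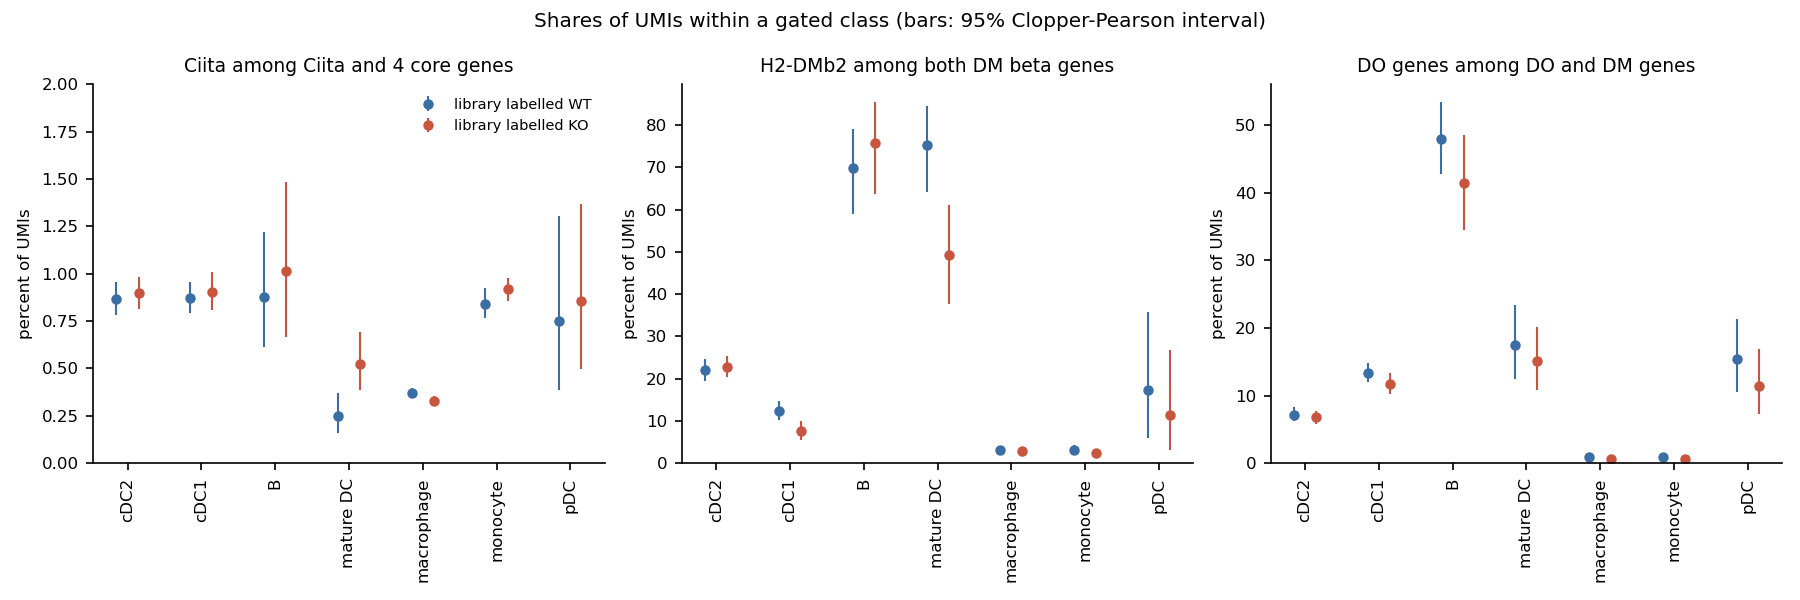
The panels plot, for 7 classes, the percent of UMIs that Ciita holds among Ciita and the core genes, H2-DMb2 among both DM beta genes, and the DO genes among DO and DM genes, with blue points for the library labelled WT, red points for the library labelled KO and 95% Clopper-Pearson bars. Macrophage-like cells sit lowest for the DM beta and DO shares together with monocyte-like cells, but well below monocyte-like cells for the Ciita share (0.369% against 0.843% labelled WT).

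Among all other genes, those whose log2(CPM + 1) followed the mean of the core genes most closely over the 22 class sums were Irf5 (r = 0.93), Rassf4 (0.91), Ly86 (0.88), Taok3 (0.88), Fgd2 (0.87), Prcp (0.85), Pold4 (0.85), Rp2 (0.84), Napsa (0.84) and Phf11b (0.84). Irf5 encodes an interferon regulatory factor of myeloid and B cells. The genes closest to the mean of the DO genes were Btla (0.93), an inhibitory receptor of lymphocytes and DCs, Siglecg (0.83), Kynu (0.83), Zfp296 (0.82) and Ero1lb (0.81). Within the family, H2-DMb2 followed H2-Ob (0.90) more closely than H2-DMb1 (0.55), and H2-DMb1 was far from H2-Oa (0.42).

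The next question was whether the members differed between the libraries within a class. A member or gene was compared where it reached 50 CPM in either library and 25 UMIs in all, and past 1.5-fold was the rule for a call, in the 7 classes with at least 100 cells in each library. In macrophage-like cells, a class in which Lyz2-driven Cre is active, none of the 6 members compared passed 1.5-fold, where 1.24% of 2823 genes were higher in the library labelled KO and 0.319% were lower. All 6 nevertheless leaned one way. Cd74 read 5418 CPM labelled WT and 6365 CPM labelled KO (log2 ratio 0.23, 0.22 to 0.25), H2-Aa 1940 and 2312 CPM (0.25), H2-Ab1 2000 and 2343 CPM (0.23) and H2-Eb1 2337 and 2698 CPM (0.21). H2-DMb1 (0.17) and H2-DMa (0.086) leaned less, and Ciita, below the filter, gave 0.059 (-0.095 to 0.21). The median over the 6 members was 0.22, beside 0.0052 over all genes compared, whose 5th and 95th percentiles were -0.23 and 0.31. The log2 ratio of the core sum, 0.23, was 0.10 when each macrophage-like cluster was given equal weight. The median depth of these cells was 8923 UMIs labelled WT and 6645 UMIs labelled KO.

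In monocyte-like cells none of the 7 members compared passed 1.5-fold, where 3.2% of 2970 genes were higher labelled KO and 0.37% lower. H2-Eb1 read 1972 CPM labelled WT and 1572 CPM labelled KO (log2 ratio -0.33, -0.37 to -0.29). H2-Ab1 (-0.18), H2-Aa (-0.17) and Cd74 (-0.11, but 0.039 under a stricter gate) were also lower labelled KO. Ciita (-0.043, -0.21 to 0.13), H2-DMa (-0.047, -0.12 to 0.027) and H2-DMb1 (-0.089, -0.19 to 0.0077) had intervals that include 0. The core sum gave -0.17 (-0.18 to -0.15), in the opposite direction to the macrophage-like cells, but -0.020 under a stricter gate.

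In cDC2-like cells none of the 10 members passed 1.5-fold, where 3.79% of 2826 genes were higher labelled KO and 2.09% lower. Their log2 ratios ran from -0.30 for H2-Oa (99.3 and 80.7 CPM) to 0.12 for H2-Ob (48.8 and 53.1 CPM), with a median of -0.078 beside 0.014 over all genes. H2-Aa gave -0.070, but 0.071 when cells were thinned to equal depth. The core sum gave -0.13 (-0.15 to -0.11), or -0.040 with cells named by cluster. The cDC1-like class had 129 and 99 cells and is given by values alone. Its core sum gave -0.086, or -0.044 under a stricter gate and a more negative value with doublets kept, given below. The widest ratio of the class was that of H2-DMb2, 74.6 and 45.3 CPM from 106 and 47 UMIs (-0.72, -1.25 to -0.21).

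Mature DC-like cells, 100 and 142 in number, had 2 members higher labelled KO and 1 lower past 1.5-fold of 8 compared. In this class 6.4% of 2483 genes were higher and 3.3% lower. Ciita read 41.9 CPM labelled WT and 65.4 CPM labelled KO (log2 ratio 0.64, -0.091 to 1.41), and H2-DMb1 33.2 and 50.7 CPM (0.61, -0.22 to 1.49), so that both intervals include 0. H2-DMb2 read 101 and 49.4 CPM (-1.04, -1.67 to -0.42). The core genes were lower labelled KO by less than 1.5-fold, Cd74 at 7352 and 5538 CPM (-0.41), H2-Aa at 3522 and 2457 CPM (-0.52), H2-Eb1 at 3919 and 2923 CPM (-0.42) and H2-Ab1 at 1897 and 1498 CPM (-0.34). With cells named by cluster H2-Ab1 gave 0.071. The core sum gave -0.43 (-0.47 to -0.39), or -0.26 with cells named by cluster. A single cell held 6.38% of the core UMIs of this class labelled WT and 4.12% labelled KO.

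**Figure D3:**
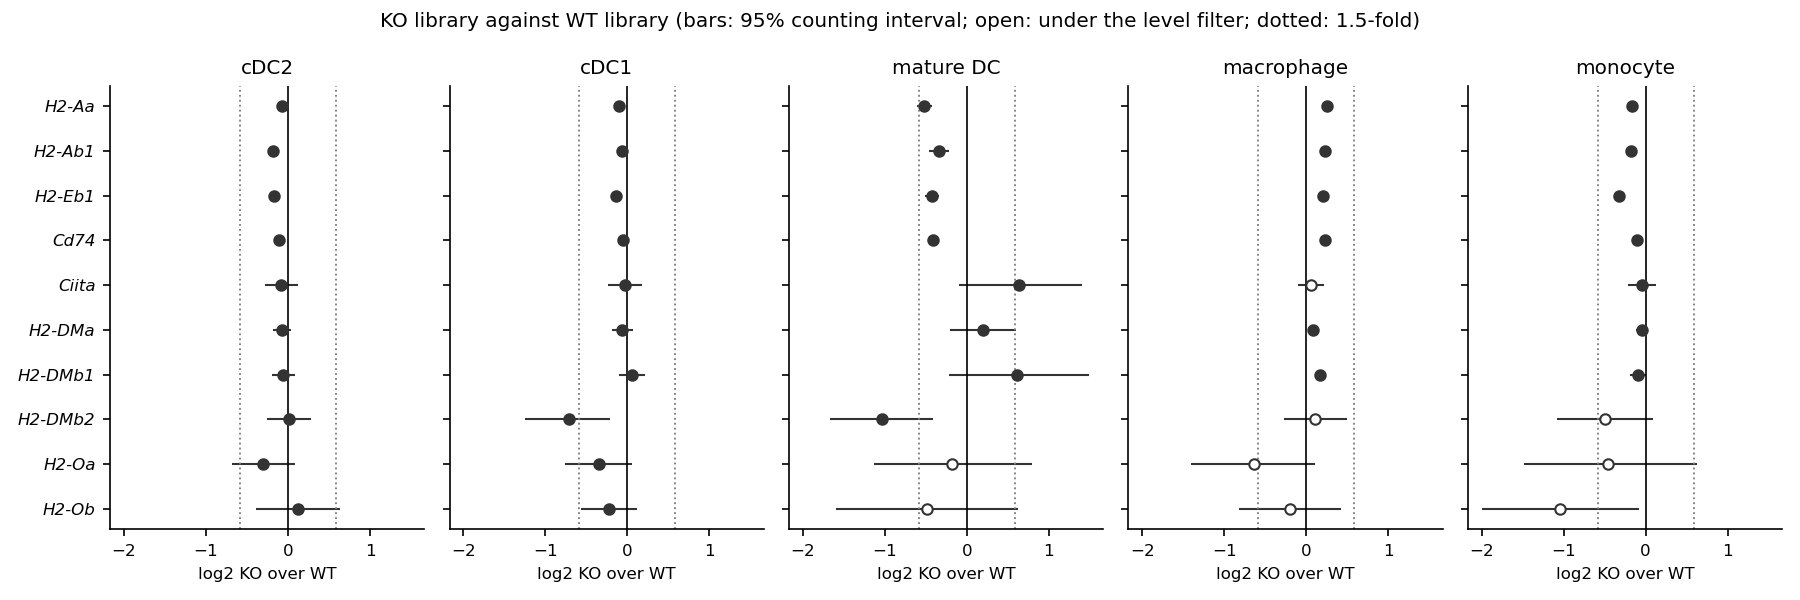
Each panel is 1 class and each row 1 member, with the log2 ratio of CPM in the library labelled KO over that labelled WT, 95% counting intervals, open points for members under the level filter and dotted lines at 1.5-fold. The core genes lie right of 0 in macrophage-like cells (0.21 to 0.25) and left of 0 in the gated sums of cDC2-like, cDC1-like, mature DC-like and monocyte-like cells.

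The members were also compared in T-like, granulocyte-like and melanoma-like cells. In T-like cells 4 of 5 members compared were lower labelled KO past 1.5-fold and none higher, where 0.983% of 2848 genes were lower and 1.09% higher. They were the 4 core genes, with log2 ratios of -0.63 to -0.65, and H2-DMa gave -0.52. The core sum gave -0.63, or -0.66 without the top cell of each library, which held 8.69% and 10.3% of it. Lyz2, a myeloid transcript, gave -2.26 in the same T-like cells, beside -1.14 in macrophage-like and -1.36 in monocyte-like cells. Of the T-like cells of both libraries, 40 fell in a cluster that the markers name macrophage-like as a whole. That cluster also held 66 macrophage-like and 282 mixed cells, and the part of its T-like cells in these ratios was not tested. In granulocyte-like cells none of 6 members passed, beside 14.4% of 2562 genes higher and 8.24% lower. The granulocyte-like core sum gave -0.056, but -0.72 without the top cell of each library, which is past 1.5-fold. In melanoma-like cells Cd74 alone was compared and did not pass (101 and 134 CPM), beside 1.36% of 2932 genes higher and 2.08% lower. The part of free RNA in the values of the antigen-presenting classes was not tested.

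Values per cell show how many cells carried the core genes and at what level. After each cell was thinned to 1000 UMIs, the median core count was 37 labelled WT and 35 labelled KO in cDC2-like cells, 34.5 and 34 in cDC1-like cells, and 18 and 20 in B-like cells. It was 11 and 6 in mature DC-like cells, 9 and 11 in macrophage-like cells, 4 and 3 in monocyte-like cells and 0 in T-like cells. The spread within macrophage-like and monocyte-like cells was wider than in B-like cells. The 10th and 90th percentiles were 0 and 32 in macrophage-like cells labelled WT and 0 and 29.2 in monocyte-like cells, against 10 and 27 in B-like cells.

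Cells with 20 or more core UMIs per 1000 made up 24.7% (22.5% to 27.0%) of the macrophage-like cells labelled WT and 30.3% (28.1% to 32.5%) of those labelled KO. In monocyte-like cells the shares were 21.1% (18.4% to 23.95%) and 15.9% (14.4% to 17.5%). In T-like cells they were 1.67% and 0.746%. At 500 UMIs per cell the monocyte-like shares were 20.7% and 17.2%, and at 2000 UMIs 20.8% and 17.8%, with overlapping intervals at both depths. The macrophage-like shares were 24.9% and 30.2% at 500 UMIs, and 25.2% and 29.2% at 2000 UMIs with overlapping intervals. Thinning left out 94 and 135 macrophage-like and 22 and 77 monocyte-like cells with fewer than 1000 UMIs. Of the B-like cells it kept 110 of 130 labelled WT and 59 of 89 labelled KO, a larger loss. Across thinned macrophage-like cells labelled WT, H2-Ab1 and Cd74 correlated at r = 0.72 over 1393 cells that share a library and depth, as a description.

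**Figure D4:**
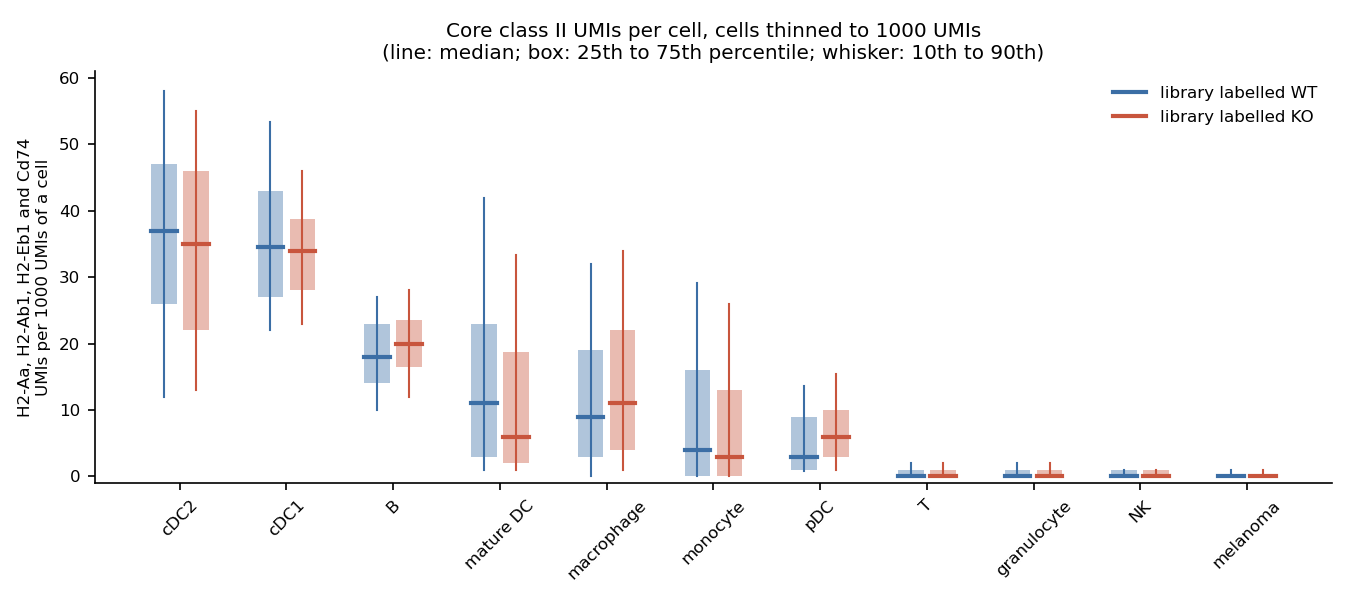
For 11 classes the plot shows core UMIs per 1000 UMIs of a cell, with the median as a line, the 25th to 75th percentile as a box and the 10th to 90th as a whisker, in blue for the library labelled WT and red for KO. Mature DC-like, macrophage-like and monocyte-like cells run from near 0 to above 25, whereas B-like cells stay between 10 and 28.

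Clusters drawn without the class II genes differed widely in their core level. Leading genes were taken against the rest of the same class, so the same cluster can have different leading genes in different classes. Within macrophage-like cells the core level ran from 8060 CPM labelled WT and 8888 CPM labelled KO in a cluster led by Mmp12, Fabp4 and Vegfa to 28739 and 32018 CPM in a cluster led by Prpf18, Retnla and Cbfa2t3. Those are the 206 macrophage-like cells of the cluster that Cxcl9 and Serpina3g lead among its 512 monocyte-like cells. Cycling cells, led by Ube2c, read 8845 and 10163 CPM, and cells led by Lyve1 read 16436 and 17486 CPM. The class's own difference was largest in the cluster led by Iigp1, Ch25h and Cxcl9, which holds interferon-gamma-inducible genes and 38.7% and 34.9% of the class. It read 12123 and 16559 CPM (log2 ratio 0.45, 0.44 to 0.46). The 6 other macrophage-like clusters with a higher value labelled KO gave 0.017 (-0.012 to 0.046) to 0.23, and 1 cluster, led by the antiviral genes Rsad2, Cmpk2 and Ifit1, gave -0.38 (20525 and 15815 CPM).

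Monocyte-like cells read 5730 and 5749 CPM in a cluster led by Ace, Nr4a1 and Adgre4, which mark nonclassical monocytes. They read 21727 and 18755 CPM in the cluster led here by Cxcl9 and Serpina3g, which Prpf18 leads in macrophage-like cells. A small group of 30 and 42 monocyte-like cells led by Cbr2 and Ednrb read 19517 and 20226 CPM. It belongs to the cluster that Lyve1 leads in macrophage-like cells. The Rsad2-led cluster again read lower labelled KO, at 17151 and 11654 CPM (-0.56, -0.60 to -0.51), and its share of the class was 6.24% and 12.5%. A cluster led by Dmkn read 6147 and 4289 CPM (-0.52, -0.57 to -0.47). The Ace-led cluster, 37.6% of the class labelled WT and 27.2% labelled KO, gave 0.0047 (-0.038 to 0.047). A macrophage-like cluster of 28 and 38 cells carried the lymphocyte genes Gzma and Nkg7, and read 11814 and 13856 CPM.

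**Figure D5:**
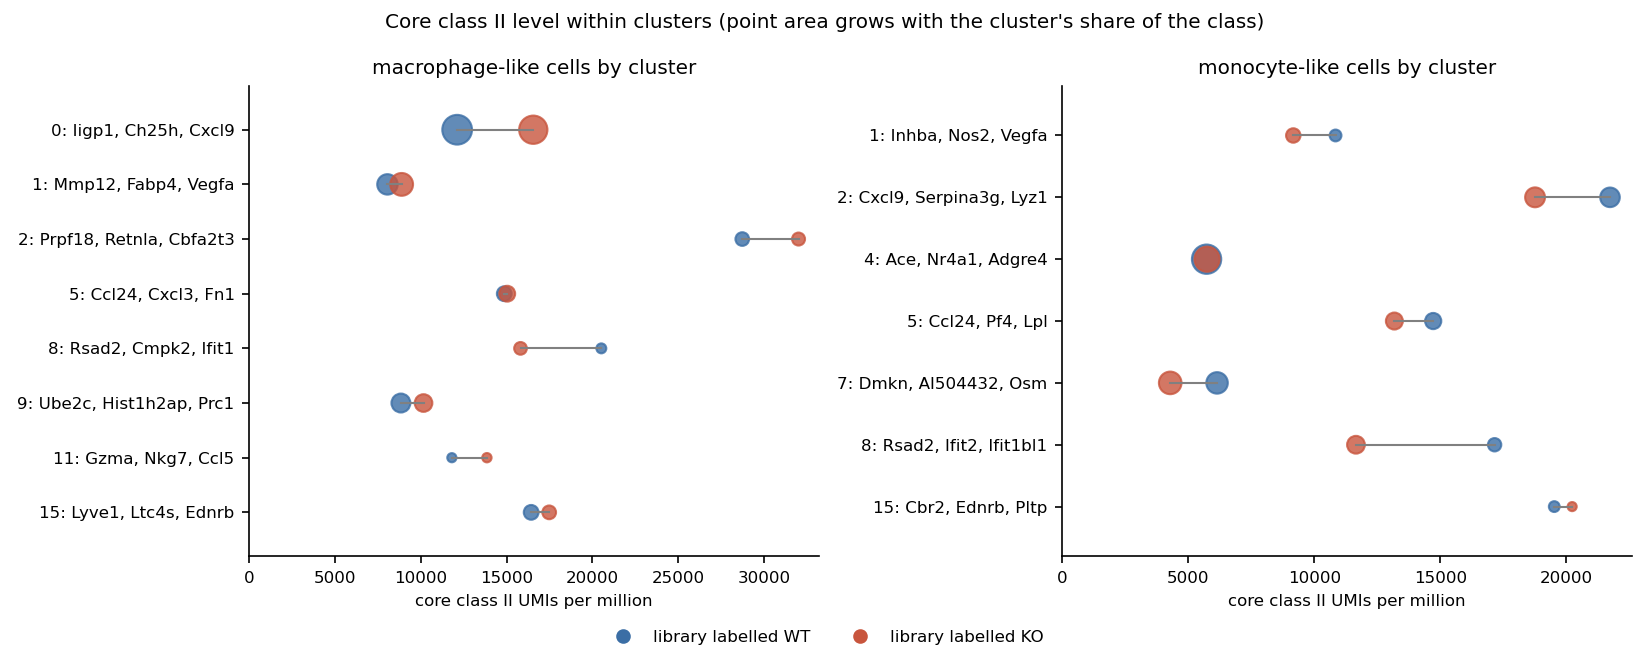
Core class II CPM in macrophage-like (left) and monocyte-like cells (right), 1 row per cluster named by its first leading genes within the class, with blue points for the library labelled WT, red points for KO, and a point area that grows with the cluster's share of the class. The same cluster can stand in both panels under different genes. Red lies right of blue in 7 of 8 macrophage-like clusters and left of blue in 5 of 7 monocyte-like clusters.

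Genes around the class II pathway were then compared by 9 lists. Interferon-gamma, which induces Ciita, also induces chemokines, guanylate-binding proteins and class I genes. Of these comparison genes 7 of 14 were higher labelled KO past 1.5-fold in monocyte-like cells and none lower, beside 3.2% of all genes higher, with a list median of 0.54 beside 0.024 over all genes. The highest of them were Gbp4 (37.4 and 71.8 CPM, log2 ratio 0.94) and Cxcl10 (346 and 637 CPM, 0.88), and the lowest were Igtp (72.0 and 123 CPM, 0.78) and Irgm1 (119 and 184 CPM, 0.62). In cDC2-like cells 5 of 13 were higher and none lower, beside 3.79% of all genes higher, among them Cxcl10 (77.8 and 239 CPM, 1.62) and Iigp1 (42.2 and 103 CPM, 1.29) at the top and Gbp2 (146 and 299.97 CPM, 1.04) and Tap1 (199 and 305 CPM, 0.61) at the bottom, and the list median was 0.56 beside 0.014. In mature DC-like cells 4 of 13 were higher and none lower, beside 6.4% of all genes higher, namely Irgm1 at 19.2 and 54.7 CPM (1.51), Cxcl9 at 128 and 283 CPM (1.15), Gbp4 at 34.9 and 64.1 CPM (0.87) and Gbp5 at 150 and 243 CPM (0.69), with a list median of 0.14 beside 0.053. In macrophage-like cells none of 13 passed in either direction, and the median was 0.15.

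Of the signalling genes upstream of Ciita, Socs1, a feedback inhibitor of interferon signalling, was the one past 1.5-fold of 10 in monocyte-like cells (83.2 and 136 CPM, 0.71), beside 3.2% of all genes higher. It was also higher in cDC2-like cells (62.9 and 104 CPM, 0.73), where Ifngr1, a chain of the interferon-gamma receptor, was lower (228 and 143 CPM, -0.67), each 1 of 10 beside 3.79% of all genes higher and 2.09% lower. None of 8 passed in macrophage-like and none of 9 in mature DC-like cells. The promoter factors of the RFX, NF-Y and CREB families were mostly too low to compare. Of 3 compared in cDC2-like, 1 in macrophage-like, 2 in monocyte-like and 4 in mature DC-like cells, none passed. Among repressors of Ciita, Ezh2 was lower in cDC2-like cells (57.1 and 37.5 CPM, -0.61), 1 of 3 compared beside 2.09% of all genes lower, and none of 2, 3 and 1 passed in macrophage-like, monocyte-like and mature DC-like cells.

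The next list holds antigen processing genes, among them proteases that cut antigen and the invariant chain. In monocyte-like cells 3 of 13 processing genes were higher and none lower, namely Ctsb (1369 and 2085 CPM, 0.61), Lgmn (528 and 803 CPM, 0.60) and Ctsd (602 and 911 CPM, 0.60), beside 3.2% of all genes, and the list median was 0.27. In cDC2-like cells Ctsl (52.1 and 89.1 CPM, 0.77) and Ctsb (469 and 720 CPM, 0.62) were higher of 13 and none lower, beside 3.79% of all genes, with a list median of 0.39. None of 13 and 12 passed in macrophage-like and mature DC-like cells, where the medians were 0.10 and 0.14. Of the genes of class II ubiquitination and traffic, Cd83, which protects class II from degradation, was higher in cDC2-like cells (38.1 and 61.6 CPM, 0.69), 1 of 6 beside 3.79% of all genes, and none of 5 passed in the other 3 classes.

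The list of costimulatory genes also holds the inhibitory ligands Cd274 (PD-L1) and Pdcd1lg2. In monocyte-like cells all 3 genes compared were higher, the stimulatory Cd40 (42.1 and 76.8 CPM, 0.87) and Cd86 (60.3 and 90.9 CPM, 0.59) and the inhibitory Cd274 (74.99 and 131 CPM, 0.80), beside 3.2% of all genes. In cDC2-like cells the 1 of 4 that passed was Cd274 (37.2 and 68.6 CPM, 0.88), beside 3.79% of all genes, and none of 3 in macrophage-like and 7 in mature DC-like cells passed. H2-Eb2, the 1 further listed class II gene of the region found in the files, and the class II receptors listed for T cells were below the filter in these 4 classes. The library labelled KO held more monocyte-like cells, 2311 against 881, and their mix of clusters differed as given above, which moved together with these counts, and its part in them was not tested.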

How the data were processed

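The authors deposited raw UMI counts per gene and barcode (Chromium 3′ v3, Cell Ranger 4.0.0 per the file headers, mm10 per the labels). The libraries share 13 barcodes. Cells with at least 200 genes and at most 10% mitochondrial UMIs were kept. Scrublet (scanpy 1.11.5) marked 1 cell per library by its own threshold, so the 256 and 532 highest-scoring cells were removed instead (0.8% per 1000 cells). Cells were gated by scaled marker scores (at least 0.25, with 3 markers detected and the runner-up at most 0.75 of the top), thresholds set after the scores were seen. The gate's edge was close for 3.31% of cells named macrophage-like and 3.35% of those named monocyte-like, and 31 monocyte-like cells led by granulocyte genes were set aside as mixed. Leiden clusters (2000 variable genes, 30 components) left out class II genes. Counts were summed per class and library, with exact Poisson, Clopper-Pearson and conditional exact intervals. Calls used log2(CPM + 1), whereas printed ratios of single genes hold no pseudocount. edgeR 4.0.16 gave TMM factors for an alternative. The 1.5-fold calls and counting intervals were tested on simulated Poisson class sums, whereas the gate, doublet removal, clusters and thinning were not. Named genes were the members, the 2 highest and 2 lowest of each list past 1.5-fold, and those most like the core and DO profiles. Members and lists were chosen with earlier results of these data known. With 1 library per genotype no test between genotypes was possible.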

Additional observations from a re-analysis of the deposited data

Results flagged for a closer look

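The KO over WT log2 ratio of the core sum had opposite signs in classes of the same 2 libraries, with counting intervals apart from 0. It was higher in macrophage-like than in monocyte-like cells by 0.40. The cDC2-like value minus the macrophage-like value was -0.36, and the mature DC-like value minus the macrophage-like value was -0.66. The monocyte-like ratio itself moved from -0.17 to -0.020 under a stricter gate, the macrophage-like ratio from 0.23 to 0.10 with equal cluster weight, the cDC2-like ratio from -0.13 to -0.040 and the mature DC-like ratio from -0.43 to -0.26 with cells named by cluster. With 1 library per genotype these differences between classes were not tested.

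Cells left out of the classes carried class II transcripts above the 212 and 275 CPM of melanoma-like cells, the lowest class, and those with weak scores also above the 17716 and 18253 CPM of B-like cells. Cells with weak marker scores (552 and 883) held a core sum of 18760 CPM labelled WT and 19359 CPM labelled KO, and 368 of them fell in the cluster that also held 512 monocyte-like cells, led by Cxcl9 and Serpina3g. Cells with mixed marker scores (489 and 506) held 13064 and 14504 CPM.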

How the results depend on the processing

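No paired analysis was possible because each genotype has 1 library and its number carries no pairing, and for the same reason no replicate could be left out. The log2 ratio of the core sum kept its sign in all 50 recomputations over 5 classes and stayed inside its counting interval in 18. The cause of the shifts was not tested. In macrophage-like cells it was 0.22 with TMM factors, 0.17 as a mean of per-cell levels, 0.18 after thinning to 1000 UMIs, 0.21 without cell filters and 0.21 with doublets kept, 0.20 by clusters, 0.27 under a stricter gate and 0.10 with equal cluster weight. In monocyte-like cells the same settings gave -0.14, -0.19, -0.20, -0.14, -0.15, -0.23, -0.020 and -0.21. In cDC2-like cells it was -0.084 as a mean of per-cell levels, -0.080 after thinning, -0.040 by clusters and -0.10 under the stricter gate. In cDC1-like cells it was -0.13 with TMM factors, -0.12 as a mean of per-cell levels, -0.14 without cell filters and -0.14 with doublets kept, and -0.044 under the stricter gate. In mature DC-like cells it was -0.35 as a mean of per-cell levels, -0.34 after thinning, -0.35 without cell filters, -0.35 with doublets kept, -0.26 by clusters, -0.37 under the stricter gate and -0.35 in its 1 cluster. Single members changed sign in 3 of 497 recomputations, H2-Aa in cDC2-like cells after thinning (0.071), H2-Ab1 in mature DC-like cells by clusters (0.071) and Cd74 in monocyte-like cells under the stricter gate (0.039). Of 8 members compared, mature DC-like cells kept 1 past 1.5-fold with a pseudocount of 10, beside 6.52% of all genes in either direction. They kept 1 at 2-fold, beside 1.89%. T-like cells kept 0 of 5 at 2-fold, beside 0.527%. A filter of 10 CPM gave 1 of 7 in granulocyte-like cells, beside 24.4%, and 1 of 6 in melanoma-like cells, beside 5.26%. By clusters the core sum read 36210 and 35215 CPM in cDC2-like, 35989 and 33746 CPM in cDC1-like, 16058 and 13442 CPM in mature DC-like, 11132 and 12799 CPM in macrophage-like and 16303 and 13855 CPM in monocyte-like cells. Thinning to 2000 UMIs gave 20.8% labelled WT and 17.8% labelled KO of monocyte-like cells with 20 or more core UMIs per 1000, with overlapping intervals. Leaving out the top cell of each library, chosen after seeing the data, turned the core ratio of NK-like cells from -1.57 to 0.11 and moved that of granulocyte-like cells from -0.056 to -0.72. Depth limits Ciita in mature DC-like, pDC-like and B-like cells, where it rests on 12 to 49 UMIs, and H2-Oa and H2-Ob in macrophage-like and monocyte-like cells, where they rest on 14 to 50 UMIs.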

Other observations

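H2-Eb2, a class II beta gene that is no member of the set above, was read mainly in mature DC-like cells, at 47.2 CPM labelled WT and 45.4 CPM labelled KO (27 and 34 UMIs), against 4.14 and 1.42 CPM in cDC2-like cells (5 and 2 UMIs).

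In T-like cells Cd4, the coreceptor for class II, was higher labelled KO (39.6 and 67.6 CPM, log2 ratio 0.77), 1 of 5 receptor genes compared beside 1.09% of all genes higher. Ezh2 was also higher there (66.1 and 102.5 CPM, 0.63), and none of the signalling, processing or interferon-gamma comparison genes passed 1.5-fold. In melanoma-like cells, whose class II level was the lowest of the 11 classes, 3 of 10 comparison genes were higher labelled KO, namely Iigp1 (23.5 and 50.4 CPM, 1.10), Tap1 (30.6 and 55.1 CPM, 0.85) and the class I gene H2-K1 (308 and 506 CPM, 0.72), while Cxcl10 was lower (83.5 and 43.1 CPM, -0.95), beside 1.36% of all genes higher and 2.08% lower. In granulocyte-like cells 3 of 13 processing genes were higher and 2 lower, beside 14.4% and 8.24% of all genes, with a list median of 0.24 against 0.11 over all genes.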
